A study of Schizosaccharomyces pombe with 36 samples.

Results

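The region described here is the 64800 bp of Schizosaccharomyces pombe chromosome III from position 85201 to position 150000, which holds the gene ura4 and the ars3002 cluster of replication origins. Its members are all 216 bins of 300 bp between these positions, out of 41073 bins of the genome covered in every library, and were chosen by position alone. The data are 36 libraries of polymerase usage sequencing, made from strains in which a mutant DNA polymerase leaves ribonucleotides in the strand it copies, so that fragment ends mark the strands made by that polymerase. There were 9 conditions of 4 libraries each, 2 from a strain with a mutant Pol delta (the catalytic subunit gene cdc6) and 2 from a strain with a mutant Pol epsilon (cdc20).

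The wild type strains, at 25 °C and 34 °C, carried cdc6-L591G or cdc20-M630F with rnh201-RED, ade6-704, leu1-32 and ura4-D18. The labels of wild type and taz1 deletion give the mating type h-, and those of the other strains give none. The rif1 deletion strains, at both temperatures, carried the same polymerase alleles with rif1::BSD, rnh201::kan and the same 3 auxotrophic alleles. The taz1 deletion strains differed from wild type by taz1::NAT, and their labels give no temperature. The stn1-226 strains, which hold a temperature-sensitive allele, were grown at 25 °C and 34 °C and carried cdc6-I591G or cdc20-M630F between lox sites, an rnh201 deletion marked hphNT1, leu1-32 and an allele written only as ura4-. The stn1-226 strains with a further rif1 deletion on their label share that background. All strains thus lack normal ribonucleotide removal by RNase H2, of which Rnh201 is the catalytic subunit, and all are labelled as ura4 mutants. The labels give 1 genotype for each condition and polymerase, grown in rich medium. Nothing in them says that its 2 libraries came from separate cultures, or from the same strain. The p-values therefore measure only the spread between these libraries, which may be technical. In wild type at 25 °C, ends over ura4 differed between replicates 1 and 2, as given below, and the cause was not tested. Comparisons with wild type also compare strain backgrounds, and they share the wild type libraries.

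In fission yeast, origins of replication carry no strict consensus sequence and lie in A+T-rich intergenic DNA, where the origin recognition complex binds runs of A and T through the AT-hooks of Orc4. The gene ura4 encodes orotidine 5'-phosphate decarboxylase of the uracil pathway and is a common selection marker. The DNA upstream of it holds the closely spaced origins ars3002, ars3003 and ars3004, long used as a model of a eukaryotic origin cluster. Rif1 delays late origins, Taz1 binds telomeric repeats and holds some internal origins late, and Stn1 belongs to the complex that brings in DNA synthesis on the telomeric C-strand. The leading strand is made mainly by Pol epsilon and the lagging strand mainly by Pol delta, so the strand used shows the direction of forks. A switch from leftward to rightward forks along a chromosome marks where forks diverge, and the opposite switch where they meet.

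The sequences at 3 places of the region are shown so that the base content of the initiation site can be set beside that of the position given for the origin; whether the sequence decides where forks start was not tested. All are from the RefSeq assembly ASM294v3, plus strand, 5' to 3', with any run of at least 10 of the same base, A or T, in capitals. The stretch at III:123037-123336 lies at the initiation site found below, between SPCC330.07C and alg11, the stretch at III:120239-120538 lies between pmp20 and SPCC330.07C, and the stretch at III:114151-114450 surrounds the position given for the origin when the region was chosen, between mug135 and tam14. The first 2 were picked as the 300 bp with the highest A+T content between their neighbouring genes, and the third is centred on its position.
Initiation site: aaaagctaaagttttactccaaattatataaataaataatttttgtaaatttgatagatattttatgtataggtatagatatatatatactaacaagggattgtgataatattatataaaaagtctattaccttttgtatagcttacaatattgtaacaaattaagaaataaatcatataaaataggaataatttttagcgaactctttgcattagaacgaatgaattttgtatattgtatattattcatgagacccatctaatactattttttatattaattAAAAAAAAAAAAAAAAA
Between pmp20 and SPCC330.07C: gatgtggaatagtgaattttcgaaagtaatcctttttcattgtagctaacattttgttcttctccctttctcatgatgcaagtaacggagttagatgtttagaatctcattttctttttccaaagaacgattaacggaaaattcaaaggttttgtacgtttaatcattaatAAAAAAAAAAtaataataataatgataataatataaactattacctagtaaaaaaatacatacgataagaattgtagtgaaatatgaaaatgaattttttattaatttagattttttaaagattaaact
Position given for the origin: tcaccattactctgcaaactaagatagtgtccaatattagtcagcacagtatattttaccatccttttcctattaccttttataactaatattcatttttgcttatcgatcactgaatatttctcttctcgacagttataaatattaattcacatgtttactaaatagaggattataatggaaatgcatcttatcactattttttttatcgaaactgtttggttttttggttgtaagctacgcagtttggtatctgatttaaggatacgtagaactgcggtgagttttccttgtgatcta
The stretch at the initiation site was 81.67% A+T. It ends in 17 of the 20 A of a run that starts at position 123320. The stretch at III:120239-120538 was 76.67% A+T and holds a run of 10 A. As both were picked for their A+T content, their rank in the genome is not given. The stretch around position 114301, which was not, was 69% A+T, matched or exceeded by 18.98% of the 41905 stretches of 300 bp in the genome, and holds no such run. A run of this kind occurs in 4.749% of stretches of this length.

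As a whole the region was near the genome's median in base content and hexamers, and below it in runs of A or T. It was 64.17% A+T against a median of 63.84% for 41260 genomic stretches of the same length. It held 6 runs of at least 10 A or T, against a median of 11, and 91.6% of stretches held at least as many. The telomere-like hexamer GGTTAC, searched on both strands, occurred 16 times, which was also the median. 1 pair of hexamers lay within 200 bp, and 60.32% of stretches held at least 1 pair. The Rif1 consensus sequence was not matched in the region, and 22.76% of stretches held a match. A match or its absence describes only these letters.

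The libraries held 2211932 to 25777570 fragment ends, of which 8707 to 119589 fell in the region, and the median bin of the region held 32 to 537 ends. Ends over rif1 stood at 0.0177 ± 0.0163 and 0.012 ± 0.00764 of the genome's level in rif1 deletion at 25 °C and 34 °C (SD, n = 4 each), but at 1.11 ± 0.115 and 1.09 ± 0.0833 where stn1-226 is labelled with a rif1 deletion, so the target gene goes against that label, and these libraries are called double-labelled here. Over the genome, however, their fork direction correlated with the mean of wild type at 34 °C as that of rif1 deletion did: at 34 °C the correlation was 0.813 to 0.856 in the double-labelled libraries, 0.813 to 0.865 in rif1 deletion and 0.927 to 0.976 in stn1-226, while at 25 °C the ranges of the double-labelled libraries, 0.666 to 0.853, and stn1-226, 0.785 to 0.972, overlapped. Ends over taz1 were 0 in all 4 taz1 deletion libraries. The contrast between strands was weak in taz1 deletion: the SD of fork direction over the genome was 0.252 to 0.554 log2 there and 0.792 to 1.97 in the other libraries. The taz1 deletion Pol delta library 2 stood apart, with a correlation of -0.136 with wild type at 34 °C over the region. The fine pattern of ends fell into 3 classes that cross the conditions, with a median correlation of 0.724 within and 0.389 between classes, and rif1 deletion at 25 °C shared no class with wild type at 25 °C.

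Ends over ura4 itself were read first, since the strains are labelled as mutants of it. The gene, SPCC330.05C, lies on the minus strand from 115589 to 116625 and overlaps 4 bins. In 16 of the 20 libraries labelled ura4-D18, those other than wild type replicate 2, ends per bin over ura4 were 0 to 0.0214 of the median bin of the region, and 9 libraries held 0 ends, which allows at most 0.0014 to 0.00385 of that level (3 ends; counting error only). Ends were near 0 over 5 bins, from 115501 to 117000, past the 5' end of the gene. The next bin, 117001 to 117300, still held 0.0615 to 1.36 of the median in these 16 libraries, and it was left out of the step and of the windows of fork direction with those 5, since its median in the ura4-D18 libraries was under 0.5. Wild type replicate 2 was different at both temperatures. At 25 °C it stood at 1.19 for Pol delta and 0.311 for Pol epsilon. At 34 °C it stood at 0.114 and 0.0384. In Pol delta at 25 °C ura4 thus carried as many ends as its surroundings, which goes against the label of that library.

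In the libraries labelled ura4-, the gene was covered. Replicate 1 of stn1-226 stood at 0.56 and 0.428 at 25 °C for Pol delta and Pol epsilon, and at 0.569 and 0.526 at 34 °C. Replicate 1 of the double-labelled stn1-226 libraries stood at 0.637 and 0.752 at 25 °C, and at 0.641 and 0.77 at 34 °C. Replicate 2 was higher throughout, from 0.982 to 2.1 with a median of 1.32, against a median of 0.603 in replicate 1, and the 2 sets of 8 libraries did not overlap. The files of these sets also differ in layout, with 8084 bins of chromosome III in replicate 1 and 8177 in replicate 2. Whether the split over ura4 is linked to that difference was not tested. Sequence of ura4 was thus present in these libraries, whether at its own place or elsewhere. Where in the genome these ends came from, and whether the allele written ura4- keeps the gene, was not tested.

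**Figure D1:**
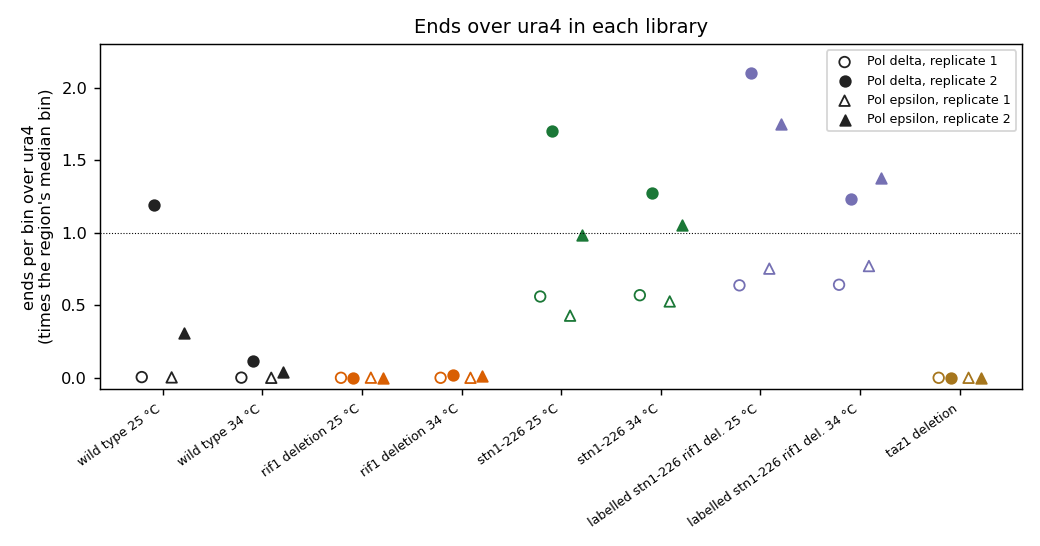
Ends per bin over ura4 in each library, as a multiple of the median bin of the region, by condition (open symbols replicate 1, filled symbols replicate 2, circles Pol delta, triangles Pol epsilon). Libraries labelled ura4-D18 lie between 0 and 0.0214 except wild type replicate 2, which reaches 1.19, and all 16 libraries labelled ura4- lie between 0.428 and 2.1.

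Where forks start was read from the initiation step. The step at a bin boundary is the log2 ratio of ends labelled by forks leaving it to ends labelled by forks moving to it, over 10 bins (3000 bp) on each side with these 6 bins at ura4 left out. A site was a local maximum of the pooled step above 0.314, which is 20% of its 99th percentile, and 529 sites were found in the genome. Only 2 of them lay in the region. The stronger, at 123301, had a pooled step of 1.48 and ranked 140 of 529, which places it among the stronger sites. It lies in the 1635 bp between SPCC330.07C, annotated as a transporter, and alg11, a mannosyltransferase of N-glycan assembly, 671 bp from the former and 6676 bp beyond the 5' end of ura4. The richest bin of the region, 123001 to 123300 at 79.67% A+T, ends at this site. The weaker site, at 149101 in hem15, which encodes ferrochelatase of haem synthesis, had a pooled step of 0.472 and ranked 427. The nearest sites outside lay at 76501, with a step of 1.575, and at 189001, with a step of 0.558.

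The position given for the origin, 114301, did not behave as an initiation site. Its pooled step was -0.0461, and its mean over the 4 libraries of a condition lay between -0.22 in wild type at 25 °C and 0.05 in rif1 deletion at 34 °C. It lies downstream of ura4, in DNA crossed by leftward forks. With the 6 bins at ura4 kept in the flank, its step rose to 0.34, just above the threshold. That position is therefore described here only as given, and the initiation site of the region is called by its own position. Which ars element it corresponds to was not tested.

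With shorter flanks of 5 bins, the pooled step again peaked at 123301, at 1.43. The next highest maximum of the region was 0.489 at 120301, inside the A+T-rich stretch between pmp20 and SPCC330.07C, followed by 0.408 at 108301 and 0.378 at 128101. Near 114301 the maximum was 0.245. The highest 10-bin step near the site was sought in each library, and in the 32 libraries other than taz1 deletion it fell between 122401 and 123601, at 123301 itself in 16 libraries and within 2 bins in 29. The position of the site was thus shared by these 8 conditions to within a few bins.

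**Figure D2:**
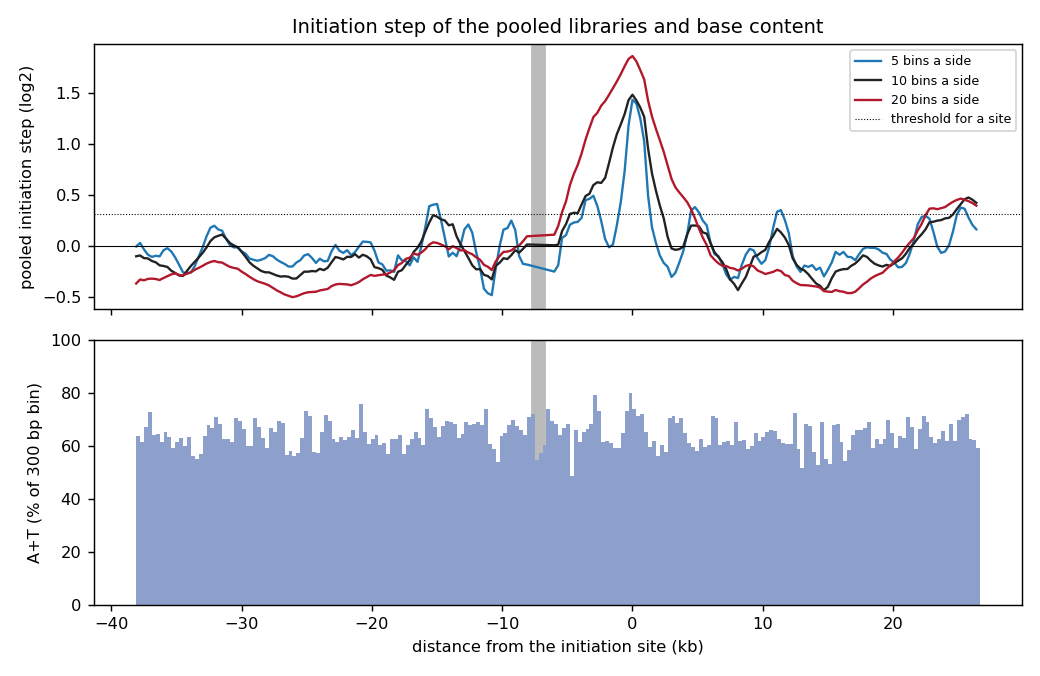
Top, the pooled initiation step (log2) with flanks of 5, 10 and 20 bins against distance from the initiation site in kb, with the threshold for a site dotted and ura4 in grey. Bottom, A+T content of each 300 bp bin. The 10-bin step peaks at 1.48 at the site, beside the bin of 79.67% A+T, and stays near 0 on both sides of ura4.

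The step at 123301 was high in every library outside taz1 deletion. In wild type it was 1.1, 1.26, 1.65 and 2.25 at 25 °C, a mean of 1.56 ± 0.51 (SD, n = 4), and 1.38, 1.51, 1.54 and 1.95 at 34 °C, a mean of 1.60 ± 0.25. In rif1 deletion it was 1.63, 1.67, 1.72 and 1.81 at 25 °C, a mean of 1.71 ± 0.08, and 0.99, 1.12, 1.63 and 1.92 at 34 °C, a mean of 1.41 ± 0.44. These 4 groups overlapped, and the means differed by less than the spread within wild type at 25 °C. Each SD holds both polymerases and does not measure the spread between replicates. In wild type the mean was 1.75 for Pol delta and 1.37 for Pol epsilon at 25 °C, and 1.46 and 1.73 at 34 °C.

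In stn1-226 the step was 1.05, 1.84, 1.87 and 2.87 at 25 °C, a mean of 1.91 ± 0.75, and 1.25, 1.49, 1.65 and 1.82 at 34 °C, a mean of 1.55 ± 0.24. In the double-labelled stn1-226 libraries it was 1.25, 1.93, 1.98 and 2.14 at 25 °C, a mean of 1.82 ± 0.39, and 1.38, 1.64, 1.9 and 1.92 at 34 °C, a mean of 1.71 ± 0.26. In all 8 of these conditions the site ranked between 128 and 165 of 529, with a median step of all sites between 0.94 and 1.21. In taz1 deletion the step was -0.28, 0.33, 0.38 and 0.76, a mean of 0.30 ± 0.43, below every other library, and the site ranked 220 where the median of all sites was 0.25. In order of their means the 8 conditions other than taz1 deletion ran from rif1 deletion at 34 °C to stn1-226 at 25 °C, and no neighbours in that order differed beyond their spread.

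**Figure D3:**
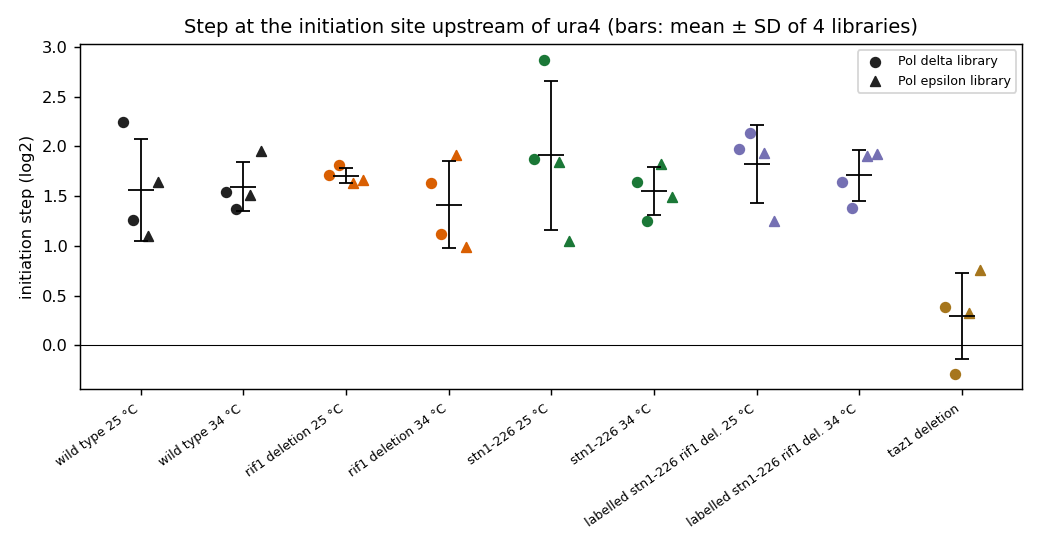
Initiation step (log2) at 123301 in each library, by condition, with Pol delta libraries as circles, Pol epsilon libraries as triangles and bars for the mean ± SD of 4 libraries. The 32 libraries of the first 8 conditions lie between 0.99 and 2.87, and the 4 taz1 deletion libraries between -0.28 and 0.76.

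The tests of the step used edgeR's quasi-likelihood test with Benjamini-Hochberg adjustment over 530 positions, the 529 sites and position 114301, and a threshold of 0.05. Against wild type, the step at 123301 changed in rif1 deletion by 0.14 at 25 °C (SE 0.26, adjusted p = 0.93 by edgeR) and by -0.18 at 34 °C (SE 0.26, adjusted p = 0.64), where 7.17% and 5.28% of all positions were called. In stn1-226 it changed by 0.35 at 25 °C (SE 0.27, adjusted p = 0.97 by edgeR) and by -0.04 at 34 °C (SE 0.26, adjusted p = 1), where 0% of positions were called at either temperature. Between the double-labelled stn1-226 libraries and stn1-226 it differed by -0.08 at 25 °C (SE 0.27, adjusted p = 0.95 by edgeR) and by 0.15 at 34 °C (SE 0.26, adjusted p = 0.99), with 6.23% and 6.6% of positions called. Between 34 °C and 25 °C in wild type it differed by 0.03 (SE 0.26, adjusted p = 1 by edgeR), with 0% of positions called. In these 7 comparisons none of the 3 positions of the region was called by edgeR or by DESeq2, and none had an unadjusted p under 0.05. With SEs near 0.26 log2, changes of that size at 123301 were not detectable here. In rif1 deletion at 34 °C, the median change over all 530 positions was -0.24.

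Taz1 deletion was the exception. The step at 123301 was lower than in wild type by a change of -1.28 (SE 0.23, adjusted p = 3e-05 by edgeR), and 1 of the 3 positions was called where 82.8% of all positions were. Of all positions called in taz1 deletion, 439 fell and 0 rose, and the median change over all 530 was -0.82. Without the Pol delta library 2 of taz1 deletion the change was -1.12 (adjusted p = 0.00078 by edgeR). After each library's steps were divided by its SD of fork direction over the genome, the change was -0.72 (adjusted p = 0.0084 by limma), but this rested on that library: scaled steps in taz1 deletion were 0.795 and -1.125 for Pol delta and 0.813 and 1.367 for Pol epsilon, against 0.813 to 1.329 in wild type. The scaled change was -0.24 (adjusted p = 0.18 by limma) without the Pol delta library 2 and -0.58 (adjusted p = 0.060) without the Pol epsilon library 1 of taz1 deletion. The interactions of rif1 deletion, stn1-226 and the double-labelled stn1-226 libraries with temperature called 0 of 3 positions in the region and 0% of 530.

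The weaker site at 149101 was seen mainly in Pol epsilon libraries. Its step was higher in the Pol epsilon than in the Pol delta library of the same condition and number in 18 of 18 pairs, with a median difference of 0.93. In the Pol epsilon libraries it ran from 0.35 to 1.28 with a median of 0.75, and in the Pol delta libraries from -0.66 to 0.34 with a median of 0.02, so that the polymerases did not overlap. How often sites elsewhere in the genome differ in this way between polymerases was not tested. At 123301 Pol epsilon was higher in 8 of 18 pairs, with medians of 1.64 and 1.63. The mean step there was lower in Pol epsilon than in Pol delta in every condition at 25 °C, and higher in every condition at 34 °C. Over both polymerases the mean step at 149101 ran from 0.25 ± 0.66 in stn1-226 at 25 °C to 0.58 ± 0.66 in rif1 deletion at 25 °C (SD, n = 4), and was 0.37 ± 0.60 and 0.52 ± 0.54 in wild type at 25 °C and 34 °C. These SDs hold the difference between polymerases and do not measure the spread between replicates. In taz1 deletion it was 0.10 ± 0.44, a change from wild type of -0.35 (SE 0.22, adjusted p = 0.14 by edgeR). In Pol epsilon alone, 2 libraries a condition, it lay between 1.11 and 1.18 in rif1 deletion and between 0.50 and 1.04 in wild type at 25 °C, and between 0.35 and 1.18 and between 0.63 and 1.23 at 34 °C. When sites were taken from wild type libraries only, the same rise was placed at 148801, where Pol epsilon was higher in 17 of 18 pairs.

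Fork direction was read as the log2 ratio of ends labelled by rightward forks to ends labelled by leftward forks in 18 windows of 12 bins (3600 bp). In all 9 conditions the mean was above 0 in the window 92401 to 96000 and below 0 in the next one, 96001 to 99600, so mainly rightward forks give way to mainly leftward ones there; these windows hold sen54 (tRNA splicing) and qcr2 (a respiratory chain subunit). From there to the site forks moved mainly leftward. The window around ura4, 114001 to 117600, holds no bin of the gene, as 6 of its 12 bins were left out, and reads only 114001 to 115500 and 117301 to 117600. There the estimated share of rightward forks was 19.3% and 19.9% in wild type at 25 °C and 34 °C, and lay between 19.7% and 24.2% in the other conditions except taz1 deletion, where it was 43%. As ura4 is transcribed from the minus strand, leftward forks beside it move in the direction of its transcription.

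The direction turned within 1 window of the site. In the window 121201 to 124800, which holds the site, the mean direction was 0.29 to 0.65 outside taz1 deletion. In the window 124801 to 128400, over alg11 and enp2, rightward forks made up 84.3% to 92.7% outside taz1 deletion and 58.5% in it. From there the share fell to between 54.3% and 65.5% in the window 142801 to 146400, and rose again to between 64.9% and 70.4% in the last window, which holds 149101, all outside taz1 deletion. The genes on the right of the site, alg11, enp2, pcm1 and btb1, lie on the plus strand, so that rightward forks cross them in the direction of transcription too.

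**Figure D4:**
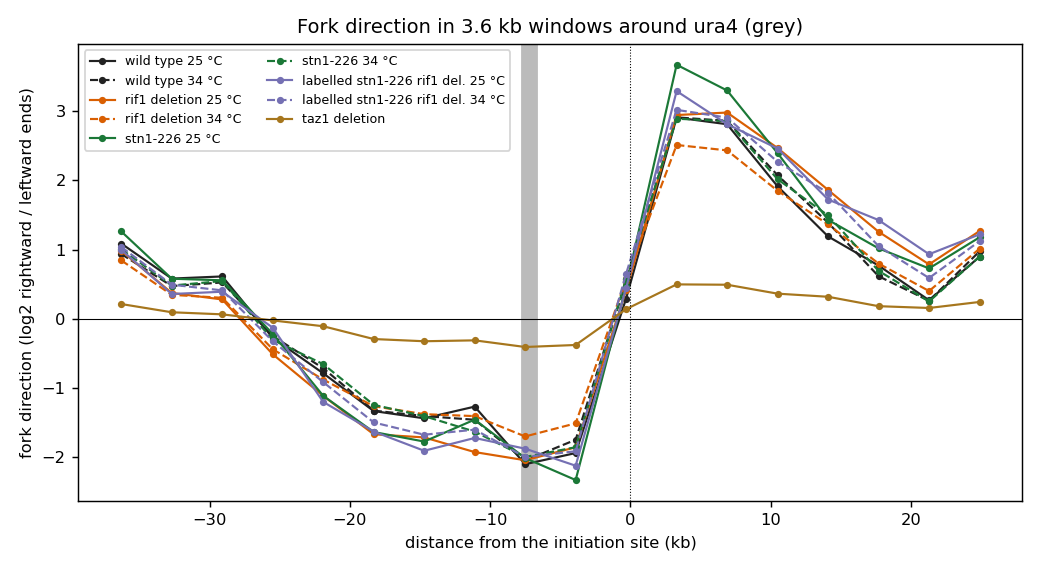
Mean fork direction (log2 rightward over leftward ends, n = 4 libraries) in 3600 bp windows against distance of the window's centre from the initiation site in kb, by condition, with ura4 in grey. All 9 conditions cross 0 between the same windows, and taz1 deletion (brown) stays between -0.41 and 0.50.

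In rif1 deletion at 25 °C, 3 of the 18 windows differed from wild type by edgeR's quasi-likelihood test adjusted over 3420 windows, or 16.7% where 23.5% of all windows were called. In the window 139201 to 142800, over sry1 (serine racemase) and the start of ark1 (Aurora kinase), direction was 1.423 and 1.252 in the Pol delta libraries of rif1 deletion and 1.187 and 1.164 in its Pol epsilon libraries. In wild type it was 0.928 and 0.308 for Pol delta and 0.959 and 0.877 for Pol epsilon, so the groups did not overlap and forks were more rightward in rif1 deletion. The change was 0.49 (SE 0.14, adjusted p = 0.010 by edgeR). The next window, 142801 to 146400, changed by 0.52 (SE 0.17, adjusted p = 0.030), with 0.521, 0.613, 0.964 and 1.042 in rif1 deletion and -0.179, 0.286, 0.45 and 0.51 in wild type. The window 92401 to 96000 changed by -0.33 (SE 0.11, adjusted p = 0.033 by edgeR). There the groups overlapped, with -0.084 to 0.525 in rif1 deletion and 0.330 to 0.922 in wild type. Wild type was 60.4% and 59% rightward in that window at 25 °C and 34 °C. The share of windows called was below that of the genome.

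These 3 calls rested on few libraries. Without wild type replicate 2 at 25 °C, the pair that carries ends over ura4, 0 windows were called, and the changes became 0.31, 0.42 and -0.35 with adjusted p of 0.17, 0.15 and 0.086 by edgeR. With the class of the end pattern as a block, 0 windows were called as well, with changes of 0.47, 0.54 and -0.28. Each of the 8 libraries left out in turn cost at least 1 of the 3 calls, with 0 windows without the Pol delta library 1 of rif1 deletion, and 1 without its Pol delta or Pol epsilon library 2 or without the Pol epsilon library 1 or the Pol delta library 2 of wild type, and 2 without any of the other 3. At 34 °C, 0 of 18 windows were called in rif1 deletion where 19.7% of all windows were, 0 had an unadjusted p under 0.05 by edgeR, and the windows 139201 and 142801 had means of 0.80 ± 0.27 and 0.40 ± 0.12 against 0.61 ± 0.18 and 0.26 ± 0.20 in wild type (SD, n = 4). The contrast between strands was weak in replicate 2 of rif1 deletion at 34 °C. Its SD of fork direction over the genome was 0.792 in both polymerases, against 1.07 and 1.62 in replicate 1. Its part in these values was not tested. The interaction of rif1 deletion with temperature called 0 of 18 windows and 0% of 3420.

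In stn1-226, 0 of 18 windows differed from wild type by edgeR at either temperature, where 0% and 0.0292% of all windows did, with 1 and 0 windows at an unadjusted p under 0.05. Between the double-labelled libraries and stn1-226 at 25 °C, 1 window of 18 differed, or 5.56% where 23.5% of all windows were called. It was again 139201 to 142800, with 1.752 and 1.658 for Pol delta and 1.243 and 1.05 for Pol epsilon, against 0.844 and 1.077, and 1.137 and 1.01, in stn1-226. The groups overlapped, and the change was 0.41 (SE 0.14, adjusted p = 0.033 by edgeR), 0.51 and 0.31 within the 2 classes of end pattern. It was lost without the Pol delta library 1 or the Pol epsilon library 2 of stn1-226, and without library 1 of either polymerase of the double-labelled set. In a fit of the stn1-226 and double-labelled libraries only, 0 of these 18 windows were called at 25 °C by edgeR, where 18.4% of all windows were. At 34 °C 0 windows were called where 19.9% of all windows were, with 1 at an unadjusted p under 0.05 and 1 called by DESeq2 or without the Pol epsilon library 1 of stn1-226. Wild type at 34 °C against 25 °C gave 0 calls in the region and 0% of all windows by edgeR, with 0 windows of the region at an unadjusted p under 0.05.

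In taz1 deletion, 16 of 18 windows differed from wild type, 6 with a higher and 10 with a lower value, or 88.9% where 62.9% of all windows were called by edgeR. In the window 124801 to 128400 the direction was 1.116, 0.044, 0.092 and 0.734, against 1.53 to 4.5 in the 8 wild type libraries, a change of -2.41 (SE 0.36, adjusted p = 8.9e-06 by edgeR). In the window around ura4 it was -0.887, -0.095, -0.22 and -0.433, against -2.953 to -1.14 in wild type, a change of 1.67 (SE 0.29, adjusted p = 3.7e-05). In both windows the groups did not overlap, and the mean of taz1 deletion was nearer 0 in all 18 windows. The others of the 5 smallest p were 128401 with -2.345, 132001 with -1.63 and 85201 with -0.80. Without the Pol delta library 2 of taz1 deletion, 13 windows were called. After division by each library's SD of fork direction over the genome, 6 windows were called by limma, among them 124801 with -1.18 (adjusted p = 0.0039) and that around ura4 with 0.71 (adjusted p = 0.036). With this scaling and without the Pol delta library 2 of taz1 deletion, 1 window was called, 128401 with -0.72 (adjusted p = 0.013 by limma), while 124801 had -0.65 (adjusted p = 0.060) and that around ura4 0.34 (adjusted p = 0.43). Without the Pol epsilon library 1, 2 were called, 124801 and 128401, and that around ura4 had 0.65 (adjusted p = 0.14).

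Total ends in the same windows, a measure of copy number and labelling relative to the genome, gave no call in the region. By edgeR, 0 of 18 windows were called in any of the 8 comparisons, where 0.0585% of all windows were called in rif1 deletion at either temperature, 0.175% and 0.205% in stn1-226, 0% in the double-labelled stn1-226 libraries at both temperatures, 0.468% in taz1 deletion and 0% between temperatures. The changes ran from -0.22 to 0.35, both in rif1 deletion at 25 °C, where 2 windows had an unadjusted p under 0.05 and 1 was called by DESeq2 or without the Pol epsilon library 1 of rif1 deletion. In the other comparisons 0 or 1 window had an unadjusted p under 0.05. The window 103201 to 106800, over the repair gene rhp16, gave the change of 0.35 (SE 0.10, adjusted p = 0.17 by edgeR).

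Because ura4 is covered in the 16 libraries of stn1-226, double-labelled or not, fork direction was also read within its 4 bins, a window added after the data were seen and tested among 3421 windows of these libraries only. In stn1-226 at 25 °C the direction within ura4 was -1.5 and -1.87 for Pol delta and 0.0156 and -0.276 for Pol epsilon, while its flanks in the same libraries stood at -2.82, -3.12, -2.13 and -1.69. At 34 °C it was -1.88 and -1.17 for Pol delta and 0.261 and 0.115 for Pol epsilon, with flanks at -2.38, -2.08, -2.58 and -1.53. In all 8 libraries of stn1-226 forks thus appeared less leftward within ura4 than beside it, by 0.5 to 2.84.

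In the double-labelled stn1-226 libraries the direction within ura4 was -3.05 and -3.26 for Pol delta and -1.51 and -1.43 for Pol epsilon at 25 °C, with flanks at -2.89, -2.16, -2.09 and -1.72. At 34 °C it was -2.61 and -1.98 for Pol delta and -1.39 and -1.12 for Pol epsilon, with flanks at -2.27, -2.18, -2.14 and -1.88. Within each polymerase and temperature these libraries were more leftward than stn1-226 and did not overlap with it. The difference was -1.40 at 25 °C (SE 0.26, adjusted p = 0.0021 by edgeR, where 18.4% of all windows were called) and -1.10 at 34 °C (SE 0.25, adjusted p = 0.0098, where 15.4% were). The windows beside it were not called at 25 °C (114001 by 0.08, adjusted p = 0.96, and 117601 by 0.21, adjusted p = 0.8, by edgeR) or at 34 °C (by 0.01, adjusted p = 0.99, and -0.05, adjusted p = 0.96). Neither window holds the bins from 116701 to 117300, so a difference there could not be seen. In 117001 to 117300, Pol epsilon ends were 0.628 to 1.27 of the region's median bin in double-labelled libraries, and 0.17 to 0.43 in stn1-226. Pol delta ends there were 0.591 to 1.34 and 0.66 to 1.69. In 115201 to 115500, Pol epsilon ends were 1.49 to 3.16 and 0.722 to 1.08, and Pol delta ends 0.312 to 0.709 and 0.356 to 0.667. Total ends within ura4 differed in the same comparison by 0.56 at 25 °C (SE 0.58, adjusted p = 1 by edgeR) and 0.25 at 34 °C (SE 0.58, adjusted p = 1). This test had no replicate block, so its SEs include the difference between replicates 1 and 2 over ura4. Differences of this size were thus not detectable. Among libraries of the same number and polymerase, the double-labelled one was higher over ura4, except Pol delta library 2 at 34 °C (1.23 against 1.27).

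The call within ura4 depended on the library at 34 °C. Leaving out the Pol epsilon library 1 of stn1-226, the Pol delta library 1 or the Pol epsilon library 1 of the double-labelled stn1-226 libraries gave adjusted p of 0.051, 0.052 and 0.058 by edgeR. The Pol delta libraries alone gave -1.46 at 25 °C (adjusted p = 0.22 by edgeR) and -0.77 at 34 °C (adjusted p = 0.87). In wild type replicate 2 at 25 °C, which also covers ura4, the direction within the gene was -0.803 for Pol delta and -1.23 for Pol epsilon, with flanks at -2.43 and -2.04. Whether the strains carry further copies of ura4 sequence, in 1 orientation or another, was not tested.

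**Figure D5:**
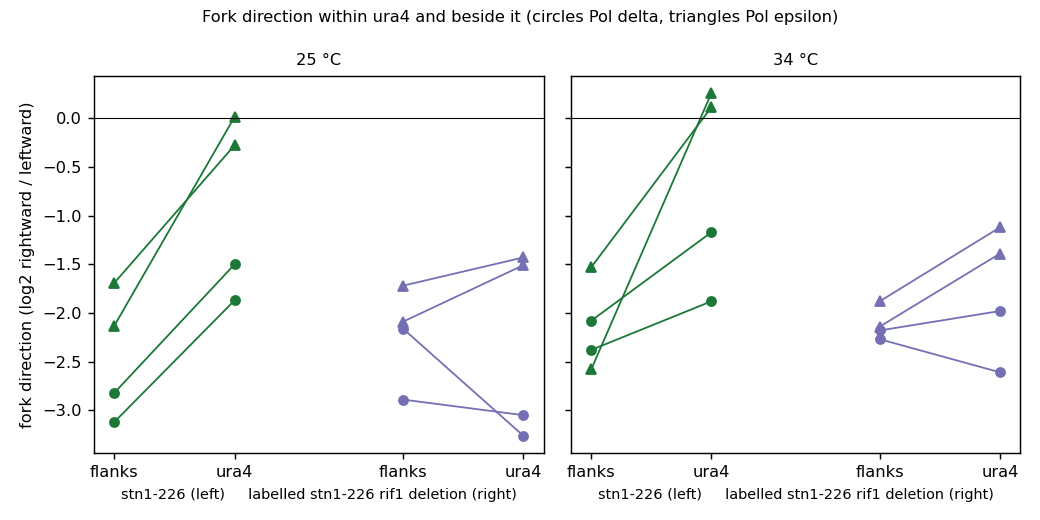
Fork direction (log2 rightward over leftward ends) in the flanks of ura4 and within it, joined by a line for each library, at 25 °C (left) and 34 °C (right), for stn1-226 (green) and libraries labelled stn1-226 rif1 deletion (violet), circles for Pol delta and triangles for Pol epsilon. All 8 lines of stn1-226 rise from flank to gene, by 0.5 to 2.84, and those of the other libraries change by -1.1 to 0.76.

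Across the 9 conditions, the step at 123301 followed a pattern shared by many sites. The sites most like it by Pearson correlation over the 9 condition means lay at 1443601 (0.995), 3995101, 4325701 and 364801 (0.994 each) of chromosome I and at 3762601 (0.995) of chromosome II. Of all sites, 47.2% had a correlation over 0.9 with it, and 8.73% when taz1 deletion was left out. The points share their libraries, and the correlation describes mainly the low value in taz1 deletion. For 149101 the most alike site was 4151701 of chromosome II (0.966), and 0.949% of sites had a correlation over 0.9.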

How the data were processed

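Each deposited file holds counts of fragment ends per 300 bp bin, with 1 file per strand and library (72 files, 36 libraries). Reads were aligned with Bowtie2, per the submitters' processing notes, and neither its version nor the build of the genome is given in the sources used here. Files start at different chromosome positions, so bins were placed on ASM294v3 by the offsets of the rule that chose the region; regressing ends on base content put the best placement at that offset in 18 libraries, 100 bp away in 4 and 200 or 300 bp away in 14, with 3.37 to 49.65% of the variance explained there and 0.494 to 49.65% at the offset used, so positions in single libraries may be off by about 1 bin. Ends in forward files of Pol epsilon and reverse files of Pol delta libraries were taken as labelled by rightward forks. For direction and step, the rightward and leftward counts of a library entered as 2 columns with the library as a block, in edgeR 4.0.16 (R 4.3.3), for the mean of both polymerases and all libraries together (18 residual degrees of freedom); features with a mean under 10 ends were left out and p-values adjusted by Benjamini-Hochberg. Values of single libraries use a pseudocount of 0.5 ends. Taz1 deletion was compared with the mean of wild type at both temperatures. DESeq2 1.42.0, limma 3.58.1, other flanks, windows, filters and library sizes, each polymerase alone and each library left out served as alternatives. The fits were tested on simulated counts in which all libraries had the same shares, apart from planted changes. The end pattern classes and the differences in contrast between strands were not simulated, so the fits were not tested under them. The positions named are all sites of the region, the position in its rule, and the windows that hold them or were called, up to 5 of smallest p. The members, lists and tests were chosen with earlier results of these data known. Depth limits precision, and limits from a count of 0 cover counting error only.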

Additional observations from a re-analysis of the deposited data

Results flagged for a closer look

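Of 63 groups of 4 libraries examined in the region, 2 held a library far from the other 3, and chance gives about 1 in 20 groups. In the window 146401 to 150000, the Pol epsilon library 1 of rif1 deletion at 34 °C had a fork direction of 1.64, against 0.758, 0.814 and 0.835 in the others. In the window around ura4, 114001 to 117600, the Pol delta library 2 labelled stn1-226 and rif1 deletion at 25 °C had a fork direction of -0.799, against -2.41, -2.17 and -2.14. This library has the fewest ends in the region, 8707, and its part in the value was not tested.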

How the results depend on the processing

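Of the alternatives to counts of calls and to values within ura4, 504 were unchanged, 34 moved and 5 lost the call. A count was unchanged if it stayed equal or within 1.5 times. A tested value was unchanged if it stayed called with the same sign, or stayed uncalled whatever its sign. Changes of sign without a call are therefore not counted as reversals. For single positions 1540 were unchanged in this sense, 60 lost the call and 5 reversed. For fork direction in rif1 deletion at 25 °C, 0 windows were called with the end pattern class as a block, 1 with Pol delta alone, 0 with Pol epsilon alone, 0 without wild type replicate 2 at 25 °C of both polymerases, and 1 with direction divided by polarity in limma, which also called 1 at 34 °C; leaving out single libraries gave 0 to 2. For the double-labelled stn1-226 libraries at 25 °C, Pol epsilon alone, polarity scaling and windows of 24 bins each gave 0, and leaving out single libraries 0 to 1. At 34 °C, DESeq2 and leaving out wild type replicate 2 at 25 °C each gave 1, and leaving out single libraries 0 to 1. For taz1 deletion, Pol delta alone gave 9 windows, polarity scaling 6, windows of 6 bins 31 of 36 and windows of 24 bins 8 of 9; leaving out single libraries gave 13 to 16, and sites from wild type only gave 2 called steps. In the window 121201 the taz1 deletion change reversed to 0.15 with polarity scaling (adjusted p = 0.36 by limma). With polarity scaling and each taz1 deletion library left out as well, 0 to 2 steps and 1 to 14 windows were called, the change in the window 121201 was 0.389, 0.075 and 0.225 without the Pol delta library 1 and the Pol epsilon libraries 1 and 2 and -0.089 without the Pol delta library 2, and the step at 114301 reversed to -0.66 (adjusted p = 0.0084 by limma) without the Pol delta library 1. For total ends in rif1 deletion at 25 °C, DESeq2 with its size factors gave 1 window and leaving out single libraries 0 to 1. Within ura4, Pol delta alone gave -1.459 at 25 °C and -0.765 at 34 °C, and leaving out single libraries gave -1.495 to -1.309 and -1.28 to -0.925. The causes were not tested. Some alternatives hold fewer samples or, with windows of other sizes, another number of windows.

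The replicate block changed no call: 3 windows of fork direction in rif1 deletion at 25 °C, 1 in the double-labelled stn1-226 libraries at 25 °C and 16 in taz1 deletion, and within ura4 -1.395 (adjusted p = 0.0034 by edgeR) and -1.104 (adjusted p = 0.013). The labels do not say that numbers pair libraries; deviations of same-numbered libraries correlated from -0.89 to 0.89. As stn1-226 and wild type at 25 °C correlated at -0.89 and -0.80, the numbers of wild type at 25 °C were also crossed, which gave 3 and 0 windows in rif1 deletion and stn1-226. The polarity scaling with a library left out, the class block, the libraries without wild type replicate 2 at 25 °C, the crossed numbers and the window within ura4 were chosen after seeing the data. Depth limits the region most in the library of 8707 ends.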
